A study of Mus musculus with 12 samples.

Results

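To ask how the T-cell receptor (TCR) repertoire of CX3CR1- CD8+ T cells in the spleen differs with CD27, the 3 CD27lo CX3CR1- libraries were compared with the 3 CD27hi CX3CR1- libraries, 6 of the 12 libraries of the study. The labels write CX3CR1lo for these subsets, and each CD27lo library was paired with the CD27hi library of the same experiment code in its title, these experiments being called A, B and C below. All 6 came from female C57BL/6 mice bearing MC38, a mouse colon adenocarcinoma line, and all mice had received anti-CTLA-4 Ab and anti-PD-L1 Ab, so that no untreated group was compared. Spleens were harvested 2 weeks after treatment began and CD45+ CD3+ CD8+ cells were flow-sorted by CD27 and CX3CR1. The libraries were treated as pools of mice rather than single animals. The other 6 libraries, CX3CR1+ splenic CD8+ T cells (CX3CR1hi in the labels) and CD8+ tumor-infiltrating lymphocytes (TILs) of the same experiments, served only as repertoires to search. Genomic DNA holds no expression, so the subsets could not be checked by marker genes.

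A TCRβ chain gene is assembled in the thymus by joining 1 V, 1 D and 1 J segment. Exonucleases trim the segment ends, and terminal deoxynucleotidyl transferase adds untemplated N bases between them, so that the junction, the CDR3, differs between cells and identifies a clone. A CDR3 with few N bases can be made again in other cells and other animals, and such CDR3s are called public. CD27, a costimulatory receptor of the TNF receptor family, is carried by naive and memory CD8+ T cells and is lost as effector cells differentiate, while CX3CR1, the receptor for fractalkine, marks differentiated effector cells. Productive rearrangements are in frame with no stop codon. Out-of-frame ones are carried along on the second chromosome and encode no chain.

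The rearrangements that led each library are shown first, because the comparisons below turn on a few large clones. Each is the 87-base window of the deposited files, with the CDR3 bases in capitals (the window ends before the last CDR3 codon).
CD27lo A, TCRBV03-01 and TCRBJ01-02: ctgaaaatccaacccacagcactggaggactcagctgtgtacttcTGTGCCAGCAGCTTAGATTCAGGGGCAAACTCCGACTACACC
CD27lo B and CD27hi B, TCRBV05-01 and TCRBJ01-03: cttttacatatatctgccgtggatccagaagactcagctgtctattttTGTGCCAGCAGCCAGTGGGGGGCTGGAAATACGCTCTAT
CD27lo C, TCRBV12-01 and TCRBJ02-05: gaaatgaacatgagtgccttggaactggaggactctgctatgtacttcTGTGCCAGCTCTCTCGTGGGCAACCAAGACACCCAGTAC
CD27hi A, TCRBV12-02 and TCRBJ02-07: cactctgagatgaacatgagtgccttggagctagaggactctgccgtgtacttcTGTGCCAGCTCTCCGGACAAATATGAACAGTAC
CD27hi C, TCRBV31-01 and TCRBJ02-03: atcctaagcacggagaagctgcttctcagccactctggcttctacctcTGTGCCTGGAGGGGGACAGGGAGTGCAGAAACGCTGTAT

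These leaders held 96, 78 and 198 templates in the CD27lo libraries A, B and C, which is 0.522% (95% Wilson confidence interval 0.428 to 0.637), 0.429% (0.344 to 0.535) and 0.916% (0.797 to 1.05) of productive templates. They held 26, 93 and 27 templates in the CD27hi libraries, or 0.0482% (0.0329 to 0.0706), 0.189% (0.155 to 0.232) and 0.0377% (0.0259 to 0.0549). Every CD27lo leader took a larger share than any CD27hi leader. A template count is the estimate by the assay of how many genomes carried a rearrangement, and these intervals cover counting error only. All 5 sequences were also in the CX3CR1+ library of their own experiment. The shared leader of experiment B, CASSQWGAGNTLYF, made up 17.5% of the CX3CR1+ templates (8948 templates) and 1.44% of the TIL templates there. The CD27hi leaders of A (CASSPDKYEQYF) and C (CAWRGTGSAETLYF) made up 1.83% and 6.33% of CX3CR1+ templates, and the CD27lo leaders of A and C made up 0.156% and 0.614%. The CD27lo leaders of A and C thus took a larger share of their own library than of the CX3CR1+ library, and the other leaders a smaller one.

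The CD27lo libraries held 18378, 18180 and 21622 productive templates and the CD27hi libraries 53946, 49116 and 71574, so that the CD27hi libraries were sampled more deeply in every experiment. Productive templates were 71.2% to 72.8% of all templates in each library. A count of 3 templates, taken as the detection floor, corresponded to between 0.0139% and 0.0165% in CD27lo and between 0.00419% and 0.00611% in CD27hi libraries. A single template cannot be read as a single cell for every J gene. Out-of-frame rearrangements of up to 5 templates sat at exactly 1 template in 93.5% to 98.7% of cases for TCRBJ01-01, TCRBJ01-06, TCRBJ02-04 and TCRBJ02-05, but in only 32.7% to 36.8% (CD27lo) and 34.8% to 39.9% (CD27hi) for TCRBJ02-07, the most used J gene. For TCRBJ01-03 the shares were 42.9% to 44.2% in CD27lo and 59.1% to 63.5% in CD27hi libraries, so the steps also differed between the subsets. Results on clone size are therefore given over all J genes and within the 4 J genes whose out-of-frame rearrangements sat at 1 template in at least 90% of cases in all 6 libraries, a choice made after seeing the data.

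**Figure D1:**
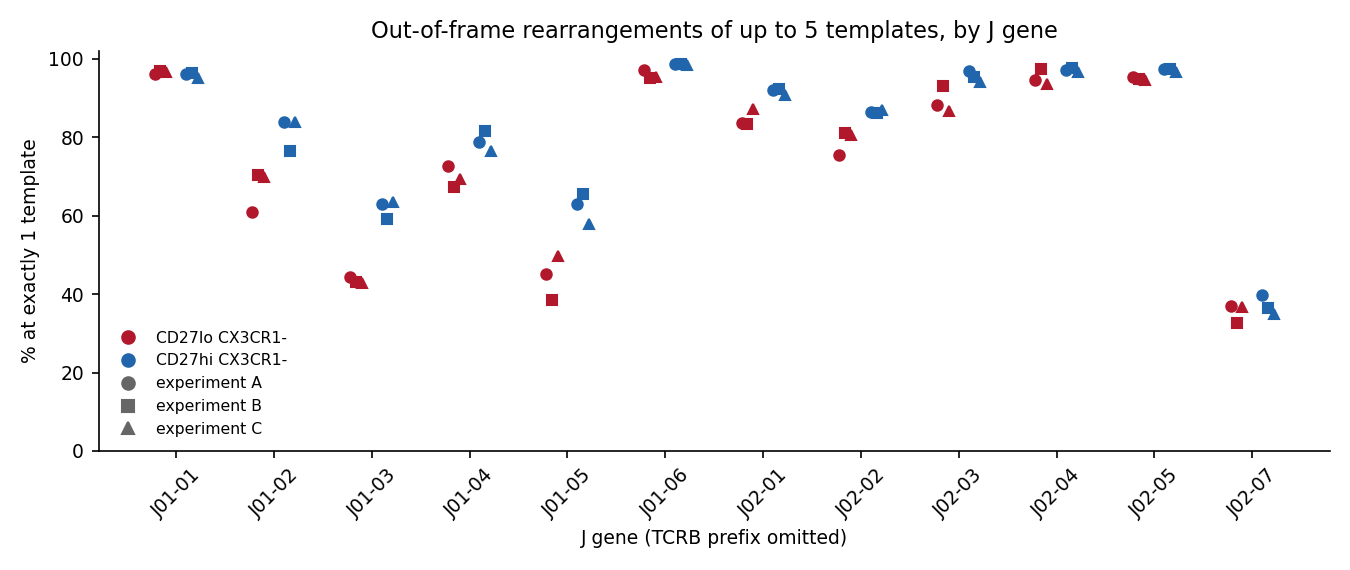
Percent of out-of-frame rearrangements of up to 5 templates that were counted at exactly 1 template, by J gene, with 1 point per library (red, CD27lo; blue, CD27hi; marker shape, experiment). TCRBJ02-07 lies between 32.7% and 39.9% in all 6 libraries, whereas TCRBJ01-01, TCRBJ01-06, TCRBJ02-04 and TCRBJ02-05 lie above 90%.

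The CD27lo repertoire held more expanded clones. With every library brought down to 18180 templates by expectation, rearrangements of over 10 templates held 2.01%, 1.52% and 2.54% of templates in CD27lo A, B and C, and 0.0345%, 0.193% and 0.0038% in CD27hi. This was 2.02% ± 0.511 (SD, n = 3) against 0.0770% ± 0.102, with no overlap. The expected number of such rearrangements was 15.8, 13 and 17.5 against 0.529, 1.06 and 0.059. The class of 6 to 10 templates held 1.95%, 1.74% and 1.69% of CD27lo templates and 0.228%, 0.131% and 0.0671% of CD27hi templates. Both classes were larger in CD27lo in every experiment.

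The difference was also present in the libraries at their own depth. The 10 largest rearrangements held 1.60%, 1.33% and 2.03% of templates in CD27lo and 0.33%, 0.43% and 0.20% in CD27hi. The 100 largest held 4.84% ± 0.427 and 1.29% ± 0.224 (SD, n = 3). A fixed number of rearrangements takes a larger share of a shallower library, and the CD27lo libraries were the shallower ones. How far depth sets these own-depth shares was not tested. The Gini index, a measure of unevenness that rises from 0 as some rearrangements outgrow the rest, was 0.220, 0.219 and 0.201 in CD27lo and 0.0736, 0.0846 and 0.0644 in CD27hi at equal templates, and 0.222, 0.219 and 0.218 against 0.167, 0.174 and 0.181 at own depth. The groups did not overlap on either scale. Rearrangements of 1 or 2 templates weigh in this index, so it also depends on depth and on the counting steps of the J genes. The exact two-sided sign-flip test over the 3 experiments gave p = 0.25 for each of 14 clone size measures (0.25 after Benjamini-Hochberg adjustment), and an exact permutation of the 6 libraries gave p = 0.1. These are the smallest values that 3 pairs and 3 against 3 libraries allow.

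**Figure D2:**
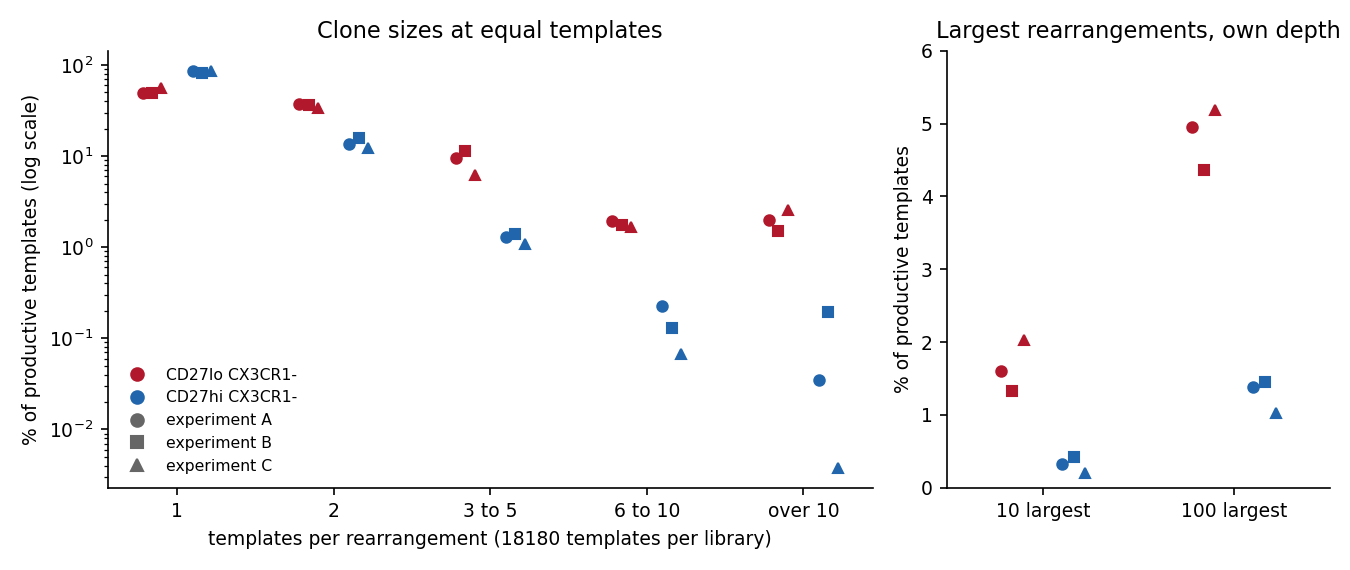
Left, percent of productive templates (log scale) in rearrangements of each size with every library at 18180 templates. Right, percent of templates in the 10 and the 100 largest rearrangements at own depth. Each point is 1 library. Rearrangements of over 10 templates held 1.52% to 2.54% of templates in CD27lo and at most 0.193% in CD27hi.

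For rarely seen rearrangements the contrast depended on depth. Rearrangements seen once were 68.8%, 68.8% and 74.9% of CD27lo rearrangements and 92.1%, 90.7% and 93.1% of CD27hi rearrangements at equal templates, but 68.5%, 68.8% and 70.0% against 76.6%, 74.2% and 73.2% at own depth. Thinning a deeper library breaks its rearrangements of 2 templates into single ones, so this contrast depends on depth by construction. Within the 4 J genes counted at single templates (4396 templates per library), 94.9%, 95.5% and 96.3% of CD27lo and 98.5%, 98.3% and 98.1% of CD27hi rearrangements were seen once. There, rearrangements of over 10 templates held 0.942%, 1.89% and 4.94% of CD27lo templates and 0.017%, 0.015% and 0% of CD27hi templates, so the groups again did not overlap.

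Most of the large CD27lo clones were found in the effector compartment as well. When rearrangements also present in the CX3CR1+ or TIL library of the experiment were left out, those of over 10 templates held 0.315%, 0% and 0.314% of CD27lo templates and 0% in all 3 CD27hi libraries (16940 templates each). The class of 6 to 10 templates still held 0.887%, 0.531% and 0.718% against 0.0075%, 0.0080% and 0.0043%.

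The larger rearrangements of CD27hi carried fewer N bases than those of CD27lo. Among rearrangements of 1 or 2 templates, the mean number of N bases was 3.46, 3.43 and 3.46 in CD27lo and 3.46, 3.46 and 3.55 in CD27hi, which overlap. Among those of 6 or more templates (64, 59 and 81 rearrangements in CD27lo, 67, 43 and 82 in CD27hi) it was 3.23, 2.98 and 3.35 in CD27lo and 1.87, 1.72 and 1.72 in CD27hi. The means were 3.19 ± 0.186 and 1.77 ± 0.0840 (SD, n = 3), a difference of 1.42 ± 0.187 bases in the same direction in 3 of 3 experiments. A count of 6 is a smaller share of the deeper CD27hi libraries, and at equal templates too few CD27hi rearrangements reached it for this contrast to be made.

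Rearrangements with no N base at all made up 12.5%, 10.2% and 7.41% of the CD27lo rearrangements of 6 or more templates and 31.3%, 37.2% and 36.6% of the CD27hi ones. The CDR3s of these CD27lo rearrangements averaged 13.7, 13.4 and 13.7 residues and those of CD27hi 12.8, 12.8 and 12.6. Neither measure overlapped between the groups. Among rearrangements of 1 or 2 templates at own depth, the share with no N base was slightly higher in CD27lo. It was 9.32% ± 0.219 against 8.73% ± 0.502 (SD, n = 3), also with no overlap. The exact sign-flip p was 0.25 for each of these measures at own depth. At equal templates this share for 1 or 2 templates was 9.33% ± 0.210 in CD27lo and 9.24% ± 0.349 in CD27hi (SD, n = 3), and the groups overlapped. At equal templates, rearrangements of 3 or more templates gave 3.43, 3.51 and 3.19 N bases against 2.24, 2.04 and 2.07.

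**Figure D3:**
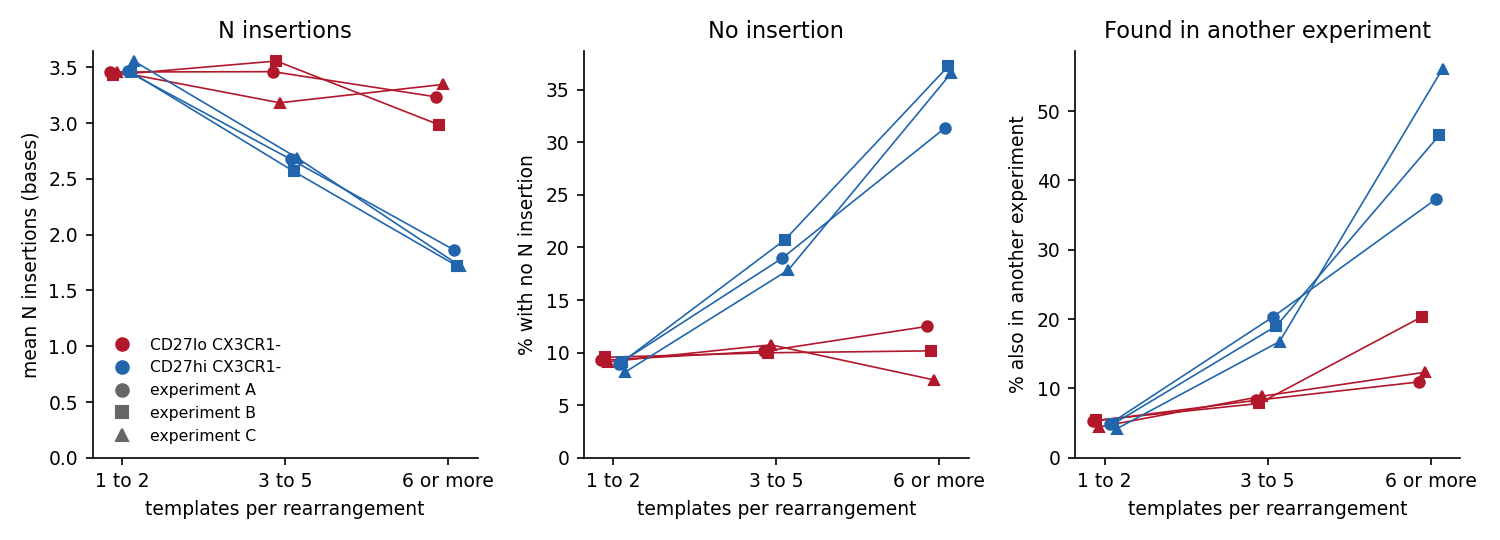
Mean number of N bases, percent of rearrangements with no N base, and percent also found in a library of another experiment, by templates per rearrangement at own depth. Each line is 1 library (red, CD27lo; blue, CD27hi). The mean numbers of N bases overlap at 1 to 2 templates, and at 6 or more the CD27hi libraries lie at 1.72 to 1.87 N bases and the CD27lo libraries at 2.98 to 3.35.

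The difference was smaller when rearrangements of 3 or more templates at own depth were taken, at 0.795 ± 0.212 bases (3.38 ± 0.158 in CD27lo and 2.59 ± 0.0606 in CD27hi, SD, n = 3). Within the 4 J genes counted at single templates, rearrangements of 3 or more templates (31, 27 and 42 in CD27lo, 41, 40 and 75 in CD27hi) had 2.52, 2.85 and 2.57 N bases in CD27lo and 2.02, 2.00 and 1.85 in CD27hi, a difference of 0.687 ± 0.182 bases, again with no overlap. The shares with no N base there, 16.1%, 7.41% and 28.6% against 24.4%, 37.5% and 32.0%, overlapped. The mean CDR3 lengths there, 13.19, 13.89 and 13.62 residues against 13.24, 13.05 and 13.35, overlapped too, and in A the CD27lo value was the lower one. Outside these J genes a count of 3 to 5 need not be an expanded clone, and how far that sets the CD27lo value was not tested.

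The leading CDR3 amino acid sequences were described at own depth, where the CD27hi libraries were deeper. The 3 most abundant of each CD27lo library came from 1 to 7 rearrangements each. Those from 1 rearrangement included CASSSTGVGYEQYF (36 templates in A), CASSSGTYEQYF (43 in B) and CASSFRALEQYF (37 in C). In the CD27hi libraries, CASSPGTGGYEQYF led A and C and came second in B, with 54, 44 and 88 templates from 26, 23 and 37 different rearrangements. Its shares were 0.100%, 0.0896% and 0.123% in CD27hi and 0.0544%, 0.105% and 0.0462% in CD27lo, which overlap. The second CDR3 of CD27hi A and C came from 23 and 19 rearrangements. The others, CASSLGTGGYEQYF, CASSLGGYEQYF and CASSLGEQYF, held 36 to 41 templates and came from 15 or 16 rearrangements each. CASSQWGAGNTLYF, from 1 rearrangement, was the exception among the CD27hi leaders. In a test of 256 CDR3 sequences with edgeR's quasi-likelihood test, none passed an adjusted p of 0.05 (0% called; 10 at an unadjusted p under 0.05, and 0 by DESeq2), so no single CDR3 was called.

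Public rearrangements followed the same order. Of the rearrangements of 6 or more templates, 7 of 64, 12 of 59 and 10 of 81 in CD27lo were also in a CX3CR1- library of another experiment (10.9%, 20.3% and 12.3%), against 25 of 67, 20 of 43 and 46 of 82 in CD27hi (37.3%, 46.5% and 56.1%). The means of 14.5% ± 5.07 and 46.6% ± 9.39 (SD, n = 3) did not overlap (exact sign-flip p = 0.25). For rearrangements of 1 or 2 templates the shares were 4.45% to 5.41% and 4.18% to 4.92%. Within the 4 J genes counted at single templates, 2 of 31, 5 of 27 and 5 of 42 CD27lo rearrangements of 3 or more templates were found in another experiment, against 11 of 41, 13 of 40 and 19 of 75 in CD27hi.

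Over the 6 libraries there were 170528 different productive rearrangements, of which 165314 (96.9%) were in 1 library with 3.61 N bases on average. The 4505 found in 2 libraries had 1.65 N bases and the 557 found in 3 had 0.808. At the amino acid level, 287 of 125416 CDR3s were in all 6 libraries, but only 4 rearrangements were. They are shown as the most widely found rearrangements of the comparison, and whether each arose anew in every experiment was not tested.
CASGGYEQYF, TCRBV13-02 and TCRBJ02-07: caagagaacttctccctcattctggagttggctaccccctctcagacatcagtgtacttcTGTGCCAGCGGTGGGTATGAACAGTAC
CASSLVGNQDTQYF, TCRBV12-01 and TCRBJ02-05: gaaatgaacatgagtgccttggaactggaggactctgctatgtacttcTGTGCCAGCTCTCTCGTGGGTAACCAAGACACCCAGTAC
TCRBV13-02 and TCRBJ02-03: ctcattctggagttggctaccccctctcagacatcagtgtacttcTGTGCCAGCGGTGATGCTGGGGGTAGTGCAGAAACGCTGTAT
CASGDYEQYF, TCRBV13-02 and TCRBJ02-07: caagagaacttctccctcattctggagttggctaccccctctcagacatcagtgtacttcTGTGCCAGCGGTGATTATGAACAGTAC

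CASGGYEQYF and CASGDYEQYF carried no N base, and the others carried 1 or 2. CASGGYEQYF was counted 3, 7 and 3 times in CD27lo and 8, 11 and 8 times in CD27hi. These are 0.0163%, 0.0385% and 0.0139% of CD27lo and 0.0148%, 0.0224% and 0.0112% of the deeper CD27hi libraries, which overlap. It was counted 31, 191 and 88 times in the CX3CR1+ libraries and 8, 105 and 228 times in the TILs (1.09% of TIL C). The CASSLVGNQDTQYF rearrangement was counted 23, 16 and 12 times in CD27lo and 21, 19 and 4 times in CD27hi. Its shares were 0.125%, 0.0880% and 0.0555% in CD27lo and 0.0389%, 0.0387% and 0.00559% in CD27hi, with no overlap. It was counted 1370, 87 and 1733 times in the CX3CR1+ libraries and 158, 0 and 354 times in the TILs. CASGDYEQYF was counted 2, 2 and 4 times in CD27lo and 1, 2 and 8 times in CD27hi (0.0109%, 0.0110% and 0.0185% against 0.00185%, 0.00407% and 0.0112%). For the TCRBV13-02 and TCRBJ02-03 rearrangement the shares were 0.00544%, 0.0110% and 0.00462% in CD27lo and 0.0111%, 0.00814% and 0.00978% in CD27hi. Both had 0 templates in every CX3CR1+ and TIL library. This allows a share of up to 0.00588% in the CX3CR1+ library of B and up to 0.0509% in TIL A, the shallowest of each kind. The public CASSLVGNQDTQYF rearrangement differed by 1 base, within the CDR3, from the leader of CD27lo C that encodes the same residues.

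The subsets of 1 experiment shared clones beyond the overlap between experiments. Of the CD27lo rearrangements, 561, 518 and 673 were also in the CD27hi library of the same experiment, and they carried 7.51%, 6.82% and 7.72% of CD27lo templates. In CD27hi libraries of other experiments the share was 2.51% to 3.61%, and the means were 7.35% ± 0.476 and 3.07% ± 0.286 (SD, n = 3). The shared rearrangements carried 2.21%, 2.18% and 1.94% of CD27hi templates, against 0.922% to 1.16% between experiments. Those shared within an experiment had 2.10, 2.12 and 1.90 N bases on average, those shared between experiments 0.99 to 1.12. At equal templates they held 4.61%, 4.13% and 4.22% of CD27lo and 2.20%, 2.18% and 1.80% of CD27hi templates.

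Large clones were found in the other subset more often than rearrangements of all sizes. Of all CD27lo rearrangements, 4.32%, 4.01% and 4.35% were also in the CD27hi library of the same experiment. Of those of 6 or more templates, 36 of 64, 42 of 59 and 44 of 81 were (56.3%, 71.2% and 54.3%). In a CD27hi library of another experiment, 5 to 7 of them were found (6.17% to 11.9%). Conversely, 34 of 67, 20 of 43 and 38 of 82 CD27hi rearrangements of 6 or more templates were in the CD27lo library (50.7%, 46.5% and 46.3%). In a CD27lo library of another experiment, 8 to 22 of them were found (12.2% to 30.2%). A larger clone is also more likely to be sampled in any library that holds it. How far this sets the contrast between large rearrangements and all rearrangements was not tested.

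Clones of CX3CR1+ T cells and TILs took a larger share of the CD27lo than of the CD27hi repertoire. Rearrangements also in the CX3CR1+ library of the experiment held 6.63%, 6.67% and 7.21% of CD27lo and 2.48%, 2.34% and 2.17% of CD27hi templates (6.83% ± 0.323 and 2.33% ± 0.159, SD, n = 3). Against CX3CR1+ libraries of other experiments, the shares were 0.65% to 1.56% and 0.42% to 0.90%. For TILs the shares were 1.45%, 3.16% and 4.81% in CD27lo and 0.42%, 1.03% and 1.03% in CD27hi. The CD27lo libraries lay above the CD27hi libraries in both searches, and TIL A was also the shallowest library searched. Over 9 measures of sharing the exact sign-flip p was 0.25 for each, 0.25 after Benjamini-Hochberg adjustment.

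**Figure D4:**
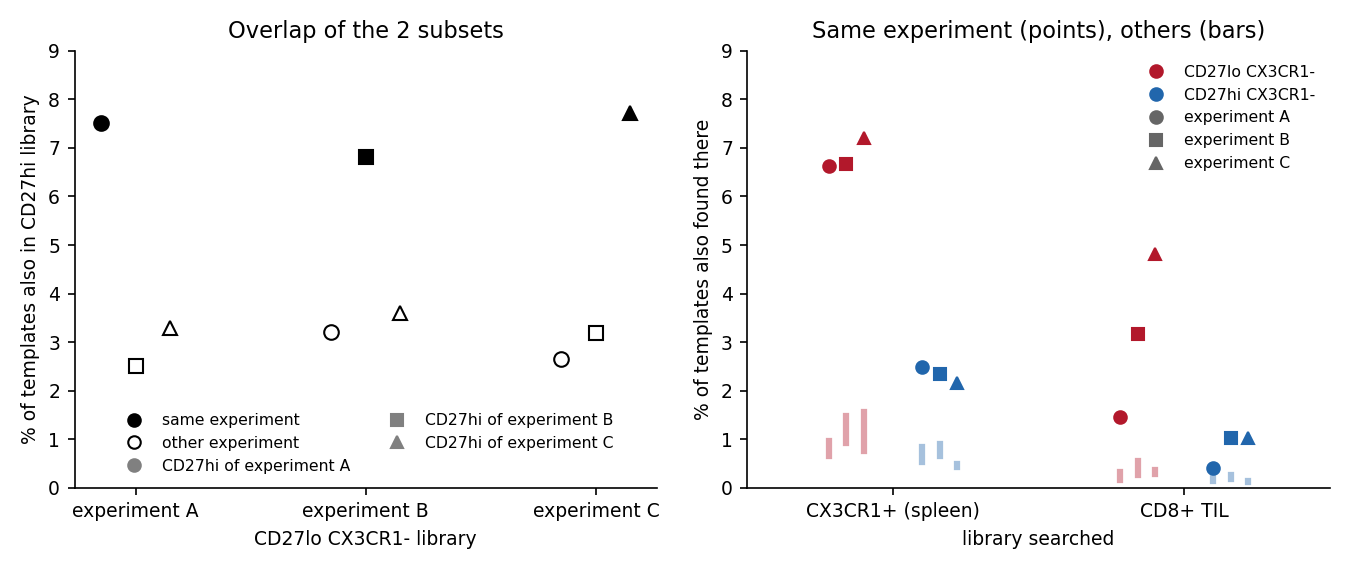
Left, percent of CD27lo templates in rearrangements also found in each CD27hi library (filled, same experiment; open, other experiments). Right, percent of templates of each library found in the CX3CR1+ or TIL library of the same experiment (points) and the range against those of other experiments (bars). Same-experiment overlap of the subsets was 6.82% to 7.72%, and between experiments 2.51% to 3.61%.

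Rearrangements of 6 or more templates that were also in CX3CR1+ cells mostly took a larger share there. Of the 38, 45 and 51 CD27lo rearrangements of 6 or more templates also in the CX3CR1+ library, 9, 13 and 9 took a larger share of the CD27lo library, as did 6, 2 and 10 of the 36, 21 and 39 in CD27hi. The median share in CX3CR1+ cells was 4.23, 3.03 and 5.78 times that in CD27lo and 9.32, 26.3 and 18.3 times that in CD27hi. A count of 6 is a smaller share of the deeper CD27hi libraries, so these folds cannot be compared directly between the subsets. Clones shared by sorted subsets and a few cells sorted across a gate, or templates carried between libraries, cannot be told apart in these data.

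V gene use was nearly the same in the subsets. None of 24 V genes passed edgeR's quasi-likelihood test with the experiment as a block at an adjusted p of 0.05 (0% called; 1 at an unadjusted p under 0.05, and 0 by DESeq2). TCRBV12-01 (Trbv12-1, chr6:41113567-41114067, RefSeq, GRCm38) was the most used V gene in CD27lo, at 8.67%, 8.43% and 9.28% against 8.67%, 8.47% and 8.81% in CD27hi. TCRBV13-02 (Trbv13-2, chr6:41121396-41121832) was the most used in CD27hi, at 8.68%, 9.09% and 8.58% against 8.55%, 8.53% and 9.06%. The smallest adjusted p was 0.231 in edgeR, for TCRBV16-01 at 6.33%, 6.50% and 6.56% in CD27lo and 7.33%, 6.79% and 6.91% in CD27hi. The groups did not overlap for 4 of 24 V genes (16.7%), 2 of 12 J genes (16.7%) and 37 of 253 V-J pairs (14.6%). Among out-of-frame rearrangements, edgeR called 0 of 25 V genes (0%; 0 at an unadjusted p under 0.05, and 0 by DESeq2).

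Of 12 J genes, 1 passed (8.33% called). TCRBJ02-05 (Trbj2-5, chr6:41543453-41543501) was used by 8.89%, 8.89% and 9.80% of templates in CD27lo and 8.42%, 8.38% and 8.05% in CD27hi (log2 fold change 0.16, SE 0.05, edgeR adjusted p = 0.0293). Part of the difference was carried by 1 CDR3. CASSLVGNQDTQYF, which uses TCRBV12-01 and TCRBJ02-05, held 27, 82 and 246 CD27lo templates from 2, 7 and 7 rearrangements, and 32, 33 and 20 CD27hi templates from 3, 11 and 6. These are 0.147% (95% Wilson interval 0.101 to 0.214), 0.451% (0.364 to 0.559) and 1.14% (1.00 to 1.29) in CD27lo, and 0.0593%, 0.0672% and 0.0279% in CD27hi. Without it TCRBJ02-05 held 8.75%, 8.48% and 8.76% in CD27lo and 8.37%, 8.32% and 8.02% in CD27hi, which still did not overlap, and the log2 fold change was 0.08 (edgeR adjusted p = 0.361). The edgeR call was also lost with DESeq2 (adjusted p = 0.344), with TMM factors (0.0594) and without experiment A, B or C (0.0545, 0.211 and 0.136). TCRBJ02-07, the most used J gene, held 29.7%, 30.4% and 28.7% in CD27lo and 30.2%, 30.7% and 31.5% in CD27hi, which overlap. Its log2 fold change was -0.063 (edgeR unadjusted p = 0.0205, adjusted p = 0.123).

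Of 253 V-J pairs, 2 passed in edgeR (0.791%), and none passed with DESeq2, with no filter on low counts or without the experiment as a block. TCRBV12-01 with TCRBJ02-05 held 0.805%, 1.15% and 1.87% in CD27lo against 0.821%, 0.772% and 0.785% in CD27hi (log2 fold change 0.71, SE 0.13, edgeR adjusted p = 0.000355), and 198 of its 405 templates in CD27lo C were the leader shown above. With the largest rearrangement of the pair left out of each library, it held 0.680%, 1.06% and 0.957% in CD27lo and 0.782%, 0.733% and 0.775% in CD27hi. Without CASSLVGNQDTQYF, which came from several rearrangements in CD27lo B and C, its log2 fold change was -0.07. TCRBV03-01 with TCRBJ01-02 held 1.03%, 0.479% and 0.476% against 0.439%, 0.421% and 0.432% (log2 fold change 0.59, edgeR adjusted p = 0.0291), and 96 of its 189 templates in CD27lo A were the leader of that library, without which the log2 fold change was 0.18 (edgeR adjusted p = 0.747). With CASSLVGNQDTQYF left out edgeR again called 2 of 253 pairs (0.791%), TCRBV03-01 with TCRBJ01-02 and TCRBV03-01 with TCRBJ01-03.

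Counting each rearrangement once, which removes clone size, changed the picture for J genes. edgeR then called 9 of 12 (75%), with 4 higher in CD27lo (TCRBJ01-01, TCRBJ02-03, TCRBJ02-04 and TCRBJ02-05) and 5 lower (TCRBJ01-02, TCRBJ01-04, TCRBJ01-05, TCRBJ02-02 and TCRBJ02-07). TCRBJ01-01 (Trbj1-1, chr6:41533864-41533911) made up 10.4%, 10.2% and 10.4% of CD27lo rearrangements and 8.98%, 9.25% and 8.59% of CD27hi ones (log2 fold change 0.22, edgeR adjusted p = 2.98e-06). Among out-of-frame rearrangements, which encode no chain, edgeR called 5 of 13 J genes (38.5%), 11 of the 12 genes tested in both moved in the same direction, and TCRBJ01-01 made up 8.93%, 9.33% and 9.05% against 8.30%, 8.42% and 7.71%. The J genes that were lower in CD27lo included those counted in steps of more than 1 template, and the part of the counting steps and of depth in these differences was not tested.

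**Figure D5:**
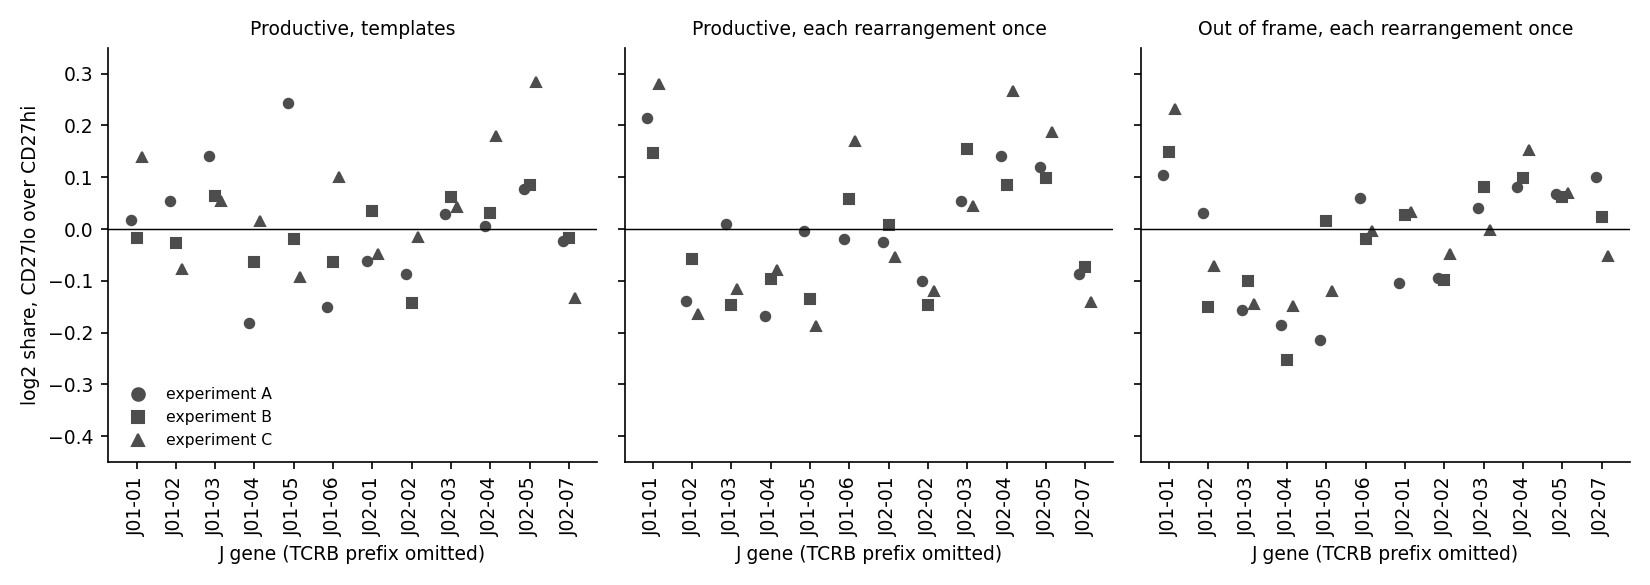
Log2 ratio of each J gene's share in CD27lo to that in CD27hi, per experiment, for productive templates, productive rearrangements counted once and out-of-frame rearrangements counted once. TCRBJ01-01, TCRBJ02-04 and TCRBJ02-05 lie above 0 in all 3 experiments in the middle and right panels.

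Over all templates the junctions of the subsets were close to each other. The mean CDR3 length was 13.870, 13.877 and 13.861 residues in CD27lo and 13.835, 13.831 and 13.827 in CD27hi, with no overlap, but 13.946, 13.964 and 13.947 against 13.933, 13.936 and 13.949 when each rearrangement was counted once. The mean number of N bases was 3.42 ± 0.0171 in CD27lo and 3.41 ± 0.0419 in CD27hi (SD, n = 3). The V segment was trimmed by 2.572, 2.592 and 2.554 bases in CD27lo and 2.635, 2.613 and 2.641 in CD27hi, and counted once by 2.603, 2.613 and 2.607 against 2.649, 2.642 and 2.657, which did not overlap on either scale. For both length and V trimming the exact sign-flip p was 0.25 (0.35 after adjustment over 7 measures).

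Classes of CDR3 length and N bases did not differ in edgeR, with 0 of 12 lengths (0%; 2 at an unadjusted p under 0.05) and 0 of 16 numbers of N bases (0%; 0 at an unadjusted p under 0.05) called, and 0 of either by DESeq2. Of the 20 amino acids in the middle of the CDR3, edgeR called 0 by templates (0%; 3 at an unadjusted p under 0.05, and 0 by DESeq2) and 4 with each rearrangement counted once (20%). These were cysteine (log2 fold change 0.59) and glutamine (0.05), higher in CD27lo, and tyrosine (-0.06) and serine (-0.04), lower, each at an adjusted p of 0.0299. Cysteine, which is rare there, made up 0.0315%, 0.0580% and 0.0663% of middle residues by templates in CD27lo and 0.0295%, 0.0416% and 0.0336% in CD27hi (log2 fold change 0.61, edgeR adjusted p = 0.148), and these overlapped.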

How the data were processed

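Genomic DNA of the sorted cells was amplified over the TCRβ CDR3 by the ImmunoSEQ assay (survey level), and the authors sequenced it on a NextSeq instrument and exported the results of the ImmunoSEQ platform. The deposited files give, for each nucleotide rearrangement, a template count without normalization, its reading frame, its V, D and J genes, and the numbers of inserted and trimmed bases, which were used as deposited by the authors. The notes name the build mm10, and gene positions are those of RefSeq for GRCm38 (36 of 36 gene names matched). J genes were unresolved for 10 to 41 rearrangements per library.

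The experiment was the replicate (n = 3). Nothing in the labels says how many mice each library held, and the paper gives 10 mice per experiment. The p-values therefore measure the spread between these libraries, not between mice. Members, lists and comparisons were chosen with earlier results of these data known. Productive rearrangements were kept. Counts per V gene, J gene, V-J pair, CDR3 length, number of N bases, middle residue (4 residues trimmed at each CDR3 end) and CDR3 were tested with the quasi-likelihood test of edgeR 4.0.16 in R 4.3.3, with the experiment as a block because the study treated its experiments as repeated measures. Features needed 10 templates (CDR3s 5) in 3 libraries, and middle residues were counted as residues weighted by templates. Library sizes were productive templates. Where out-of-frame templates, middle residues or single rearrangements were counted, their totals were used instead. edgeR estimated the dispersion itself (with a trend only for 100 or more features), and the Benjamini-Hochberg threshold was 0.05. Deviations of same-experiment libraries correlated at 0.13, 0.66 and 0.83 over CDR3 lengths and at 0.78, 0.18 and 0.49 over N bases, but at -0.35, 0.54 and -0.19 over J genes. Clone size spectra, sharing and means were compared by exact sign flips and permutations in Python 3.11.15 with numpy 2.4.6, pandas 2.3.3 and scipy 1.17.1, figures were drawn with matplotlib 3.10.9, and equal depth was the hypergeometric expectation at 18180 templates. The methods were tested on simulated data.

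Named genes were those past the threshold and the most used V and J gene of each group, named CDR3s the 3 most abundant of each library (at most 14 residues), and printed sequences the leader of each library and those in all 6. The rearrangements of 6 or more templates, the 10 and 100 largest and the 4 J genes were singled out after their values were seen. Alternatives were DESeq2 1.42.0, TMM factors, no filter, no block, counting each rearrangement once, amino acid clonotypes, 5000 templates, a minimum of 2 templates, and leaving out each experiment, effector-shared clones or single leaders.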

Additional observations from a re-analysis of the deposited data

How the results depend on the processing

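Leaving out each experiment kept the direction of every clone size and sharing measure, as did 5000 templates, a minimum of 2 templates and amino acid clonotypes where they were run. At own depth the CD27lo minus CD27hi difference in the number of rearrangements turned to -6790 for size 2, -425 for size 3 to 5 and -2.33 for size 6 to 10, because the CD27hi libraries hold more templates. The number of J genes called, 1, became 9 with each rearrangement counted once and 5 for out-of-frame rearrangements (added after seeing the data), and 0 with TMM factors, with DESeq2, without effector-shared rearrangements, without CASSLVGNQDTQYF, without each library's largest rearrangement (these last 2 chosen after seeing the data), and without any experiment (0 to 0). The number of V-J pairs called, 2, became 8 with each rearrangement counted once, 0 with DESeq2, with no filter on low counts and without effector-shared rearrangements, 1 without each library's largest rearrangement, and 0 to 3 when an experiment was left out. Without the pairing by experiment (no replicate block) 0 V-J pairs were called, and the block changed no other count of calls. Middle residues called, 0, became 4 with each rearrangement counted once and 1 without effector-shared rearrangements.

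The log2 fold change of TCRBJ02-07, -0.063 by productive templates, turned to 0.019 among out-of-frame rearrangements counted once. That of TCRBV12-01 turned to -0.094 counted once and -0.048 without effector-shared rearrangements, and ranged over -0.0029 to 0.042 when an experiment was left out. That of TCRBV13-02 turned to 0.052, 0.0080 and 0.026 counted once, with TMM factors and without effector-shared rearrangements, and ranged over -0.056 to 0.034 when an experiment was left out. That of TCRBV12-01 with TCRBJ02-05 turned to -0.063, -0.16 and -0.075 counted once, without effector-shared rearrangements and without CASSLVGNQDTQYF. Counted once, the difference in mean N bases was -0.0232 and that in the percent with no N base 0.367. When an experiment was left out, the difference in mean N bases ranged over -0.0020 to 0.0383, and that at the D-J junction over -0.0174 to 0.0090. The cause of these changes was not tested. With 3 experiments, no sign-flip test can pass the threshold, and clones under 3 templates were near the limit of detection.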
